A study of Sus scrofa with 3 samples.

Results

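The genes described here encode the protein machinery that removes introns from pre-mRNA, as expressed in pig liver. They were chosen by name: every gene ID in the deposited tables whose pig symbol begins with SRSF, SF3A, SF3B, SNRP, HNRNP, PRPF or U2AF, or with LSM and a digit. This gave 46 of 25322 gene IDs, and 45 of them reached 1 CPM or more in at least 1 library. CPM, the usual depth-scaled unit, is a gene's count relative to its library's scaled total. No U2AF gene carried a matched ID, and 39 further genes of these families, among them SRSF2, SF3B1, U2AF1 and U2AF2, had no matched ID and were not analysed here.

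Liver RNA came from 3 male pigs at postnatal day 90: an Enshi black pig, a Large White pig and a Chinese wild boar. Each animal gave 1 library, and the labels mention no treatment and no pooling. Breed, animal and library therefore cannot be told apart, no difference has a replicate check, and no test across animals was possible. In bulk tissue, fewer cells of a type and less RNA per cell cannot be told apart either.

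As background, splicing proceeds in steps that these families serve. SR proteins (SRSF) bind exonic enhancers through an RNA recognition domain and recruit the spliceosome through a serine- and arginine-rich tail, and hnRNP proteins coat nascent transcripts and often oppose that selection. Small nuclear ribonucleoproteins (snRNPs) carry the catalytic RNAs: the Sm proteins form a ring on most of them, the LSM proteins form one on U6, the SF3A and SF3B complexes fix the U2 snRNP on the branch point, and PRPF proteins build and activate the U4/U6.U5 tri-snRNP. In liver, SRSF3 is known from mouse work as a factor that hepatocytes need for maturation and normal lipid metabolism.

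The livers held these transcripts at similar summed levels, and 3 genes stood out. HNRNPK and SRSF3 were lower in Enshi black than in either other library, and SNRPN was higher in Large White than in either other library. Of all expressed genes, 4.61% were lower in Enshi black than in both others and 1.68% were higher in Large White than in both, by the rule given next. A gene was called higher or lower when the whole 95% interval of its fold lay at least 2-fold away from 1. Values given as 3 numbers follow the order Enshi black, Large White, Chinese wild boar, and any 2 of the 3 comparisons share a library. Each interval is an exact binomial interval on the counts and covers counting error only, not variation between animals.

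HNRNPK encodes a poly(C)-binding hnRNP protein with KH domains, which acts in splicing, transcription and mRNA stability. Its gene ID (ENSSSCG00000022760) had 610 counts in the Enshi black liver, 2508 in the Large White liver and 2656 in the Chinese wild boar liver. In CPM these were 28.3, 128 and 135, so that the Enshi black library alone was low. HNRNPK was 4.52-fold lower in Enshi black than Large White (interval 4.14 to 4.95) and 4.76-fold lower than in Chinese wild boar (4.35 to 5.20). These comparisons share the Enshi black library. Of all expressed genes, 4.27% had a lower log2 fold than HNRNPK in the first and 3.51% in the second. Between Chinese wild boar and Large White the ratio was 1.05 (0.995 to 1.11).

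SRSF3 encodes the smallest canonical SR protein, which also helps export spliced mRNA. Its ID (ENSSSCG00000001564) had 100 counts in the Enshi black liver, 249 in the Large White liver and 279 in the Chinese wild boar liver, or 4.64, 12.7 and 14.1 CPM. Again only the Enshi black value was low. SRSF3 was 2.74-fold lower there than in Large White (2.16 to 3.49) and 3.05-fold lower than in Chinese wild boar (2.42 to 3.87), and the ratio of Chinese wild boar to Large White was 1.11 (0.934 to 1.33). Both SRSF3 calls ended when a coefficient of variation of 0.2 was assumed between animals, whereas those of HNRNPK ended only at 0.4.

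SNRPN encodes SmN, a close relative of the ring proteins SmB and SmB′, from an imprinted locus expressed from the paternal copy and best known in brain. Its ID (ENSSSCG00000028124) had 148 counts in the Enshi black liver, 337 in the Large White liver and 78 in the Chinese wild boar liver, or 6.86, 17.2 and 3.95 CPM. Large White was the high library. SNRPN was 2.51-fold lower in Enshi black than Large White (2.06 to 3.06), a difference no longer called with total counts, a 99% interval or an assumed coefficient of variation of 0.2. It was 4.35-fold lower in Chinese wild boar than in Large White (3.39 to 5.64). Enshi black and Chinese wild boar gave a ratio of 1.74 (1.31 to 2.32), which was not called.

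PRPF40B, a homologue of a yeast U1-associated bridging protein, came nearest to the threshold without passing it. It had 6.07 CPM in the Enshi black liver, 14.1 in the Large White liver and 12.1 in the Chinese wild boar liver, with Enshi black the low library. The ratio to Large White was 0.430 (0.346 to 0.531), just outside the rule, whereas SNRPN in the same comparison, at 0.399 (0.327 to 0.486), lay just inside.

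**Figure D1:**
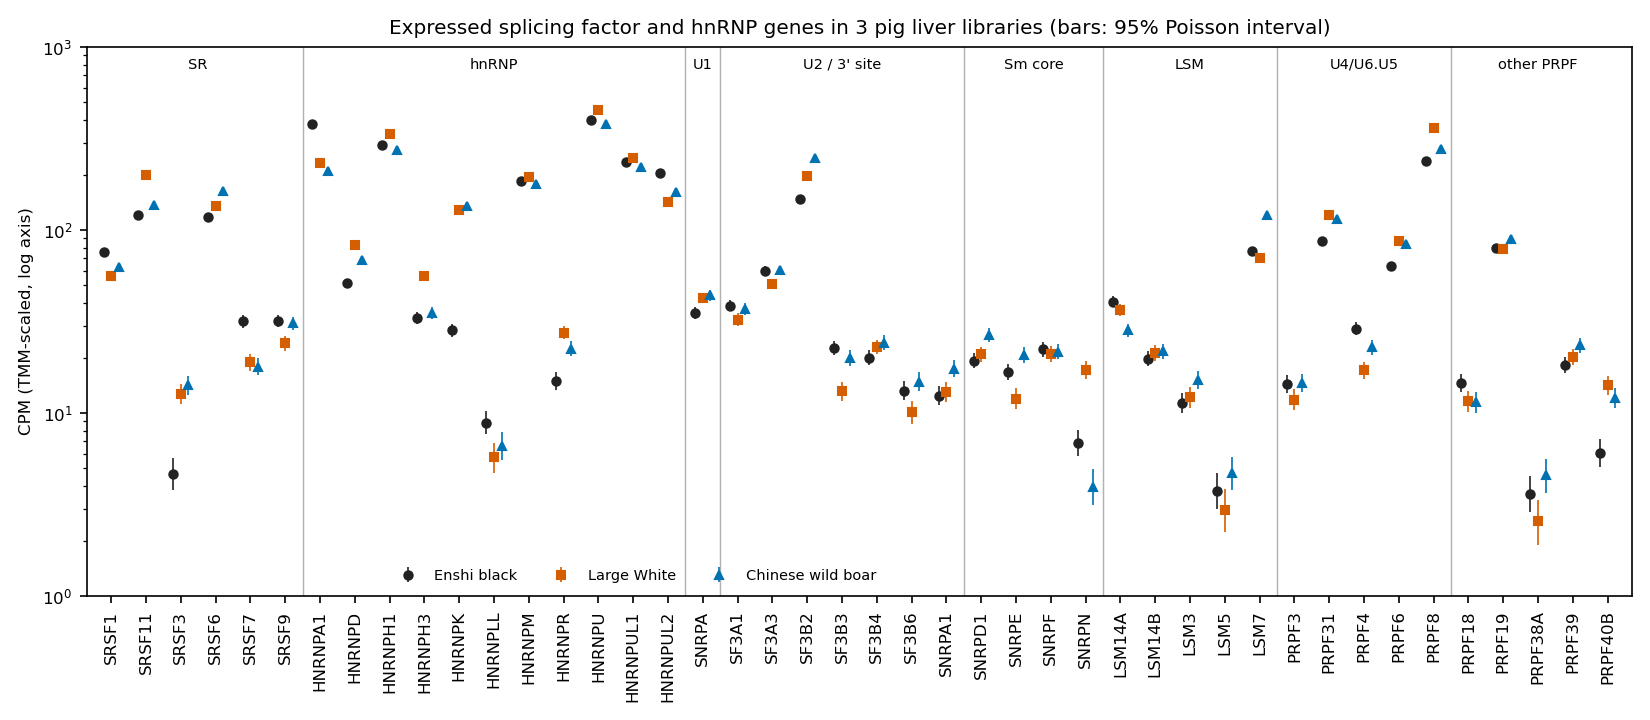
CPM of the expressed genes reported singly (log axis) in the libraries of Enshi black (circles), Large White (squares) and Chinese wild boar (triangles), 1 library each, grouped by role, with 95% Poisson intervals for counting error. HNRNPK and SRSF3 have 1 low point, in Enshi black, and SNRPN has 1 high point, in Large White. Levels can be compared between libraries but not between genes, since they are not divided by transcript length.

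Counted over the group, 3 of 45 expressed genes were lower in Enshi black than Large White and none was higher. Of all 13224 expressed genes, 8.36% were lower and 4.73% higher by the same rule. Between Enshi black and Chinese wild boar 2 of 45 were lower and none was higher, against 7.17% and 3.98% of all expressed genes. Between Chinese wild boar and Large White 1 of 45 was lower and none was higher, against 3.71% and 2.99%. The shares of lower genes, 6.67%, 4.44% and 2.22% of the 45, were near or below that background in each comparison.

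With the nearer bound set at 1.5-fold, 7 genes were lower and 1 higher in Enshi black than Large White, where 14.8% and 11.7% of all expressed genes passed. The 4 added lower genes were PRPF40B, HNRNPR, HNRNPH3 and SRSF11, and the higher gene was HNRNPA1. Against Chinese wild boar, 4 genes were lower and 2 higher in Enshi black, against 12.8% and 9.77%. Here PRPF40B and the U2 subunit SF3B2 joined the lower genes, and HNRNPA1 and SRSF7 were higher. In Chinese wild boar against Large White, SNRPN was lower and LSM7 higher, against 8.47% and 7.55%.

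Most members differed between libraries by more than counting error but by little. The interval excluded 1 for 35 of 45 genes between Enshi black and Large White, 33 between Chinese wild boar and Large White and 33 between Enshi black and Chinese wild boar. Among all expressed genes it did so for 71.1%, 61.2% and 68.1%. The median log2 folds of the 45 genes were -0.08, 0.09 and -0.16 in that order, beside 0.01, 0.01 and 0.00 for all expressed genes. Genes that reached 10 CPM in a library had medians of -0.02, 0.04 and -0.06. The median of the 45 genes in the first comparison changed sign with total counts, to 0.01.

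**Figure D2:**
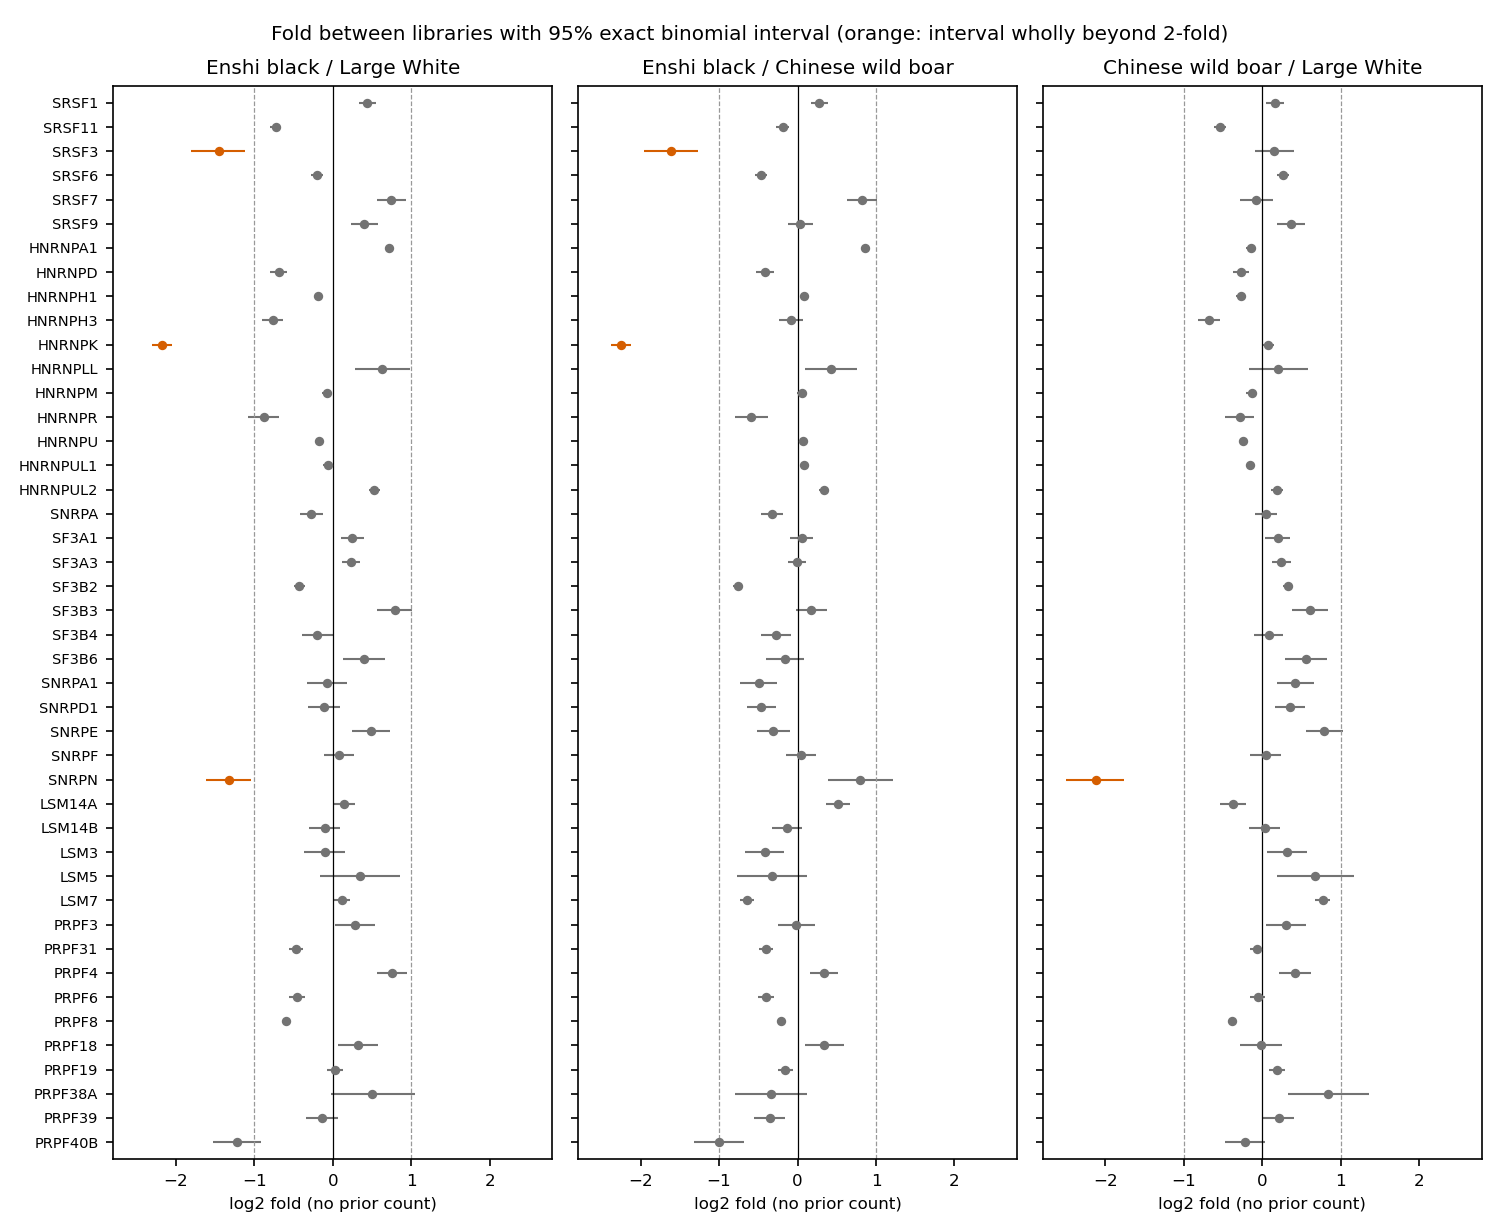
Log2 fold of each expressed gene reported singly (rows) in 3 pairs of libraries (panels), with 95% exact binomial intervals. Dashed lines mark 2-fold, and orange marks genes whose whole interval lies beyond it: HNRNPK, SRSF3 and SNRPN in the first panel, HNRNPK and SRSF3 in the second and SNRPN in the third.

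Each gene's spread can be put as its highest CPM over its lowest in the 3 libraries. The median of this ratio was 1.43 over the 45 genes, 1.68 over all expressed genes and 1.58 over the 8121 genes that reached 10 CPM in a library. Of the 45 genes 26 stayed under 1.5 (57.8%), against 36.7% of all expressed genes and 43.2% of those reaching 10 CPM. A ratio of 2 or more was found for 4 genes (8.89%), namely HNRNPK at 4.76, SNRPN at 4.35, SRSF3 at 3.05 and PRPF40B at 2.33, against 35.1% and 26.3%. The lowest ratio was that of the Sm protein SNRPF, 1.06. Part of the spread of a gene with few counts is counting error, and no test of the difference between these distributions was made.

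**Figure D3:**
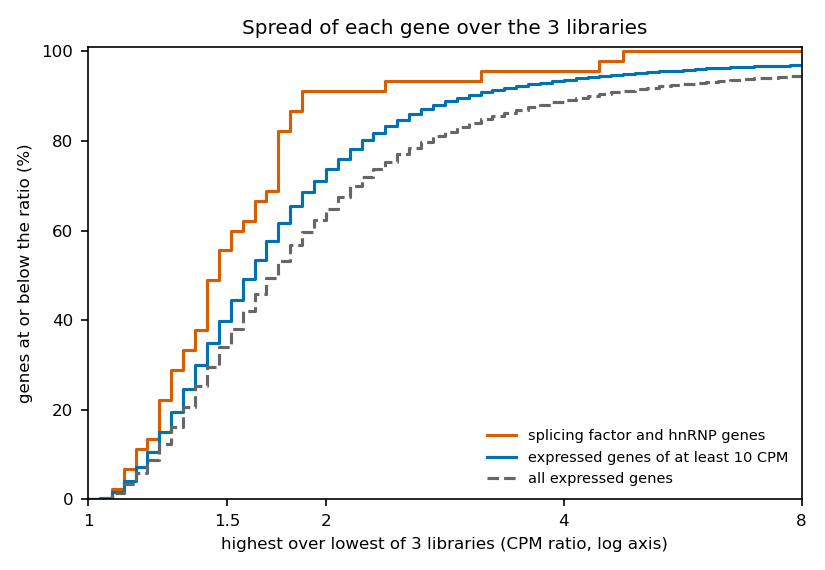
Cumulative percentage of genes (y axis) at or below each ratio of highest to lowest CPM over the 3 libraries (x axis, log scale). From a ratio of about 1.07 upward, the curve of the splicing factor and hnRNP genes lies above both backgrounds, with medians of 1.43, 1.58 and 1.68. Its last steps are SRSF3, SNRPN and HNRNPK.

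Taken by library, Chinese wild boar had the highest value for 20 of the 45 genes and the lowest for 9. Enshi black had the highest for 12 and the lowest for 20, and Large White the highest for 13 and the lowest for 16. Over all expressed genes Enshi black was highest for 37.2%, Large White for 32.8% and Chinese wild boar for 30.0%. The lowest library was Enshi black for 36.4%, Large White for 34.2% and Chinese wild boar for 29.4%. With total counts in place of TMM factors the Enshi black library was highest for 16 genes and lowest for 18, and Chinese wild boar highest for 18. The shares of all expressed genes were then 42.9%, 31.4% and 26.6% in that order. The summed CPM of the 45 genes was 3412 in the Enshi black liver, 3770 in the Large White liver and 3610 in the Chinese wild boar liver. As shares of total gene counts these were 0.3563%, 0.3698% and 0.3525%, with Chinese wild boar lowest.

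Of the 6 SR protein genes only SRSF3 passed, and the others lay in different directions. SRSF7, which like SRSF3 is an adaptor for mRNA export, had 31.6 CPM in the Enshi black liver, 18.9 in the Large White liver and 17.9 in the Chinese wild boar liver. Enshi black was thus highest for SRSF7 and lowest for SRSF3, and the ratios of SRSF7 were 1.68 (1.47 to 1.91) to Large White and 1.76 (1.55 to 2.01) to Chinese wild boar, neither of which passed. SRSF11, a protein with an arginine- and serine-rich domain, had 121, 200 and 138 CPM in the order Enshi black, Large White, Chinese wild boar. For SRSF11 Large White alone was high. SRSF6 had 118, 136 and 163 CPM, with Chinese wild boar highest, by amounts that did not pass. SRSF1, the founding SR protein, had 76.1, 56.1 and 62.7 CPM and SRSF9 had 31.7, 24.0 and 31.0. The 6 genes summed to 382, 447 and 426 CPM, so that their total varied less than SRSF3, SRSF7 or SRSF11 alone.

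Among the 11 hnRNP genes, HNRNPK was the 1 gene called. HNRNPA1, a repressor of splice site use, lay the other way: 380 CPM in the Enshi black liver, 232 in the Large White liver and 209 in the Chinese wild boar liver. Its ratio was 1.64 (1.58 to 1.70) to Large White and 1.82 (1.75 to 1.89) to Chinese wild boar, under the rule. HNRNPD, known as AUF1 and a regulator of AU-rich mRNA decay, had 51.1, 82.4 and 68.4 CPM, and HNRNPR had 14.9, 27.5 and 22.5. In both, Enshi black was lowest and Large White highest. HNRNPH3 had 33.1, 56.3 and 35.1 CPM, with Large White alone high. Its relative HNRNPH1, which binds runs of G, had 291, 333 and 275.

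Several hnRNP genes differed little between libraries. HNRNPU, which ties chromatin and RNA in the nucleus, had 400 CPM in the Enshi black liver, 452 in the Large White liver and 380 in the Chinese wild boar liver, HNRNPM had 185, 195 and 178, and HNRNPUL1 had 235, 246 and 222. In all 3 genes Large White was highest and Chinese wild boar lowest, within a ratio of 1.19. The folds of HNRNPM and HNRNPUL1 between Enshi black and Large White changed direction with the scaling. HNRNPUL2 had 204, 141 and 161 CPM, and HNRNPLL, known for CD45 exon choice in lymphocytes, had 8.86, 5.71 and 6.59. The summed level of 10 T and NK cell markers was 179, 179 and 79.2 CPM, and its part in the HNRNPLL values was not tested. The summed hnRNP level was 1832, 1899 and 1691 CPM. As a share of each library's total gene counts it was 0.191%, 0.186% and 0.165%, with Enshi black highest.

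Of the U2 snRNP and its branch point complexes, 7 genes were measured and none passed. All 7 lay above Large White in Chinese wild boar, as did 6696 of all 13224 expressed genes. The log2 folds of the 7 had a median of 0.33, beside 0.01 over all expressed genes and 0.04 over those reaching 10 CPM. For SF3B4 the ratio was 1.06, with an interval (0.927 to 1.20) that included 1. SF3B2 had 147 CPM in the Enshi black liver, 198 in the Large White liver and 248 in the Chinese wild boar liver, and had the widest gap of these 7 genes from Enshi black to Chinese wild boar, a ratio of 0.593 (0.567 to 0.620). SF3B3, a large scaffold subunit of SF3B, showed another order, with 22.6, 13.1 and 20.0 CPM and Large White lowest. SF3B6, the subunit next to the branch point adenosine, had 13.3, 10.1 and 14.8 CPM, and SF3B4 had 20.0, 23.0 and 24.3. The SF3A subunits SF3A1 (38.5, 32.4 and 37.1 CPM) and SF3A3 (59.9, 51.0 and 60.3 CPM) were lowest in Large White by small amounts. SNRPA1, a protein of the U2 particle, had 12.4, 13.1 and 17.5 CPM. SNRPA, a protein of the U1 particle and the 1 measured member of its group, had 35.1, 42.5 and 43.9.

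Apart from SNRPN, no Sm ring gene passed in any pair. SNRPD1 had 19.3 CPM in the Enshi black liver, 20.9 in the Large White liver and 26.6 in the Chinese wild boar liver. SNRPF had 22.3, 21.0 and 21.6 CPM, the steadiest values of the 45 genes. SNRPE had 16.8, 11.99 and 20.8 CPM, and its ratio of 1.73 (1.47 to 2.04) between Chinese wild boar and Large White was the largest of these. Its value is uncertain, since RefSeq lists a pseudogene under the same symbol beside the coding gene in the Sscrofa11.1 assembly.

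Of 6 LSM genes, 5 were expressed. LSM7, a subunit shared by the nuclear ring on U6 and the cytoplasmic ring that promotes decapping, had 76.6 CPM in the Enshi black liver, 70.5 in the Large White liver and 120 in the Chinese wild boar liver. Chinese wild boar alone was high, at 1.70-fold Large White (1.59 to 1.82), under the rule. LSM3 had 11.4, 12.2 and 15.1 CPM and LSM5 3.76, 2.96 and 4.71, and the intervals of LSM5 were wide at 58 to 93 counts. LSM14A and LSM14B, which belong to cytoplasmic mRNA granules and not to the ring, had 40.5, 36.7 and 28.3 CPM and 19.8, 21.3 and 21.7 CPM. LSM8, which marks the nuclear ring, is listed at 0 counts in every library, where 3 counts would be worth 0.139, 0.153 and 0.152 CPM. A 0 in these tables need not show absence, because APOA1, an abundant hepatocyte gene as background, is listed at 2, 0 and 2 counts.

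The tri-snRNP genes formed a contrast between subunits. PRPF8, the core protein around the catalytic centre, had 239 CPM in the Enshi black liver, 360 in the Large White liver and 276 in the Chinese wild boar liver. PRPF6 had 63.7, 87.6 and 84.0 CPM, and PRPF31, which joins U4/U6 to U5, had 86.7, 120 and 115. In all 3 genes Enshi black was lowest and Large White highest. PRPF4, which with PRPF3 sits on U4/U6, ran the other way with 28.9, 17.1 and 22.8 CPM, a ratio of 1.69 (1.47 to 1.93) between Enshi black and Large White. PRPF3 had 14.4, 11.8 and 14.6 CPM. None of the 5 genes passed in any pair.

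Of the other PRPF genes, PRPF19, the ubiquitin ligase of the activating complex, had 79.8 CPM in the Enshi black liver, 78.2 in the Large White liver and 89.0 in the Chinese wild boar liver. The B complex protein PRPF38A had 3.62, 2.55 and 4.56 CPM from 50 to 90 counts. The U1-associated PRPF39 had 18.3, 20.2 and 23.4 CPM, and the second-step factor PRPF18 had 14.6, 11.6 and 11.5. None of these genes, nor PRPF40B, passed in any pair.

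Ratios between genes within a library need no scaling between libraries, and 19 such pairs were formed with the values known, as a description. The ratio of SRSF7 to SRSF3 counts was 6.82 in the Enshi black liver (5.52 to 8.50), 1.49 in the Large White liver (1.26 to 1.75) and 1.27 in the Chinese wild boar liver (1.08 to 1.49). The Enshi black interval lies apart from both others, which overlap. HNRNPA1 to HNRNPK gave 13.4 (12.4 to 14.6), 1.81 (1.73 to 1.90) and 1.56 (1.48 to 1.63). SNRPN to SNRPF gave 0.308 (0.255 to 0.371), 0.818 (0.706 to 0.947) and 0.183 (0.142 to 0.233), each apart from the others.

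Other ratios varied less. SF3A1 to SF3A3, subunits of 1 complex, gave 0.644 in the Enshi black liver (0.589 to 0.703), 0.636 in the Large White liver (0.575 to 0.703) and 0.615 in the Chinese wild boar liver (0.560 to 0.674), with overlapping intervals. HNRNPU to HNRNPM gave 2.16, 2.31 and 2.14, and LSM5 to LSM7 0.0490, 0.0420 and 0.0393. Within the SF3B complex they varied more: SF3B3 to SF3B2 gave 0.154 (0.140 to 0.169), 0.0664 (0.0583 to 0.0753) and 0.0807 (0.0727 to 0.0894), so that the Enshi black library held 2.32 times the ratio of Large White.

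**Figure D4:**
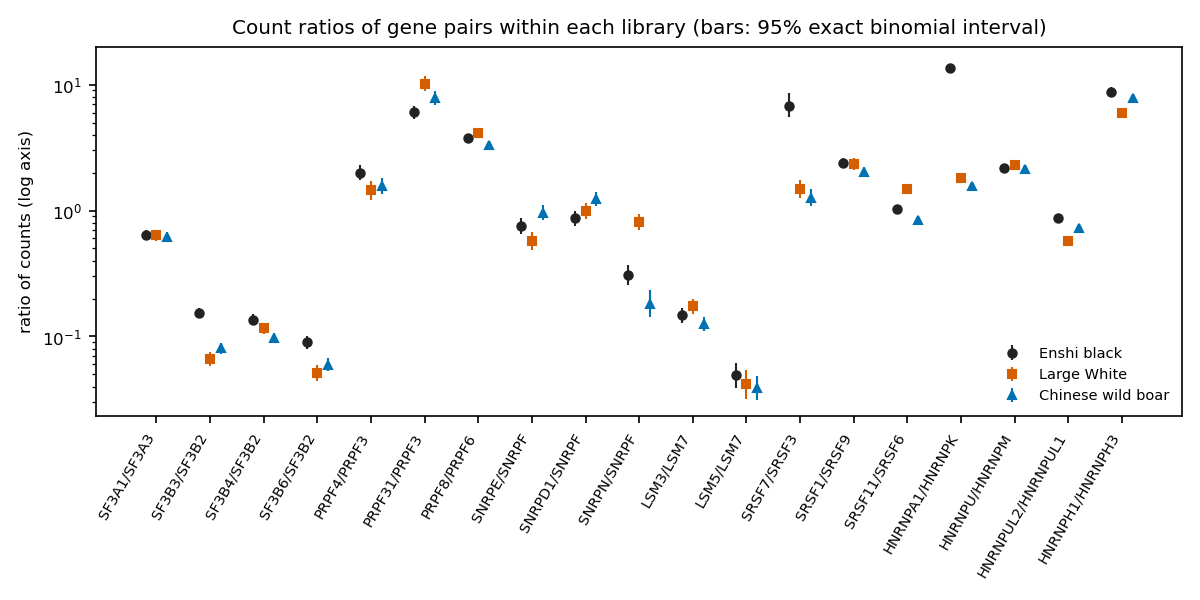
Ratio of the counts of 2 genes within each library (log axis) for 19 pairs of the same complex or family, with 95% exact binomial intervals. SRSF7/SRSF3 and HNRNPA1/HNRNPK are high in Enshi black, at 6.82 and 13.4, and SNRPN/SNRPF is high in Large White, at 0.818, while SF3A1/SF3A3 lies between 0.615 and 0.644 in all 3 libraries.

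Other genes of the splicing pathway were taken from lists. Of 35 expressed spliceosome proteins and helicases, 2 were lower and none higher in Enshi black than Large White, 2 were lower than in Chinese wild boar, and 1 was lower in Chinese wild boar than in Large White. The shares of all expressed genes called lower were 8.36%, 7.17% and 3.71% in that order. RBM25, a U1-associated regulator of exon choice, had 45.5 CPM in the Enshi black liver, 332 in the Large White liver and 158 in the Chinese wild boar liver. It was 7.30-fold lower in Enshi black than Large White (6.82 to 7.81), 3.47-fold lower than in Chinese wild boar (3.23 to 3.73), and 2.104-fold lower in Chinese wild boar than in Large White (2.02 to 2.20). PLRG1, a subunit of the PRPF19 complex, had 0 counts in the Enshi black liver, 18 in the Large White liver and 45 in the Chinese wild boar liver. With 0 counts it has no fold, and the bound of its interval nearest to 1 was 4.84-fold lower in Enshi black than Large White and 12.8-fold lower than in Chinese wild boar. The list's median log2 fold was -0.34 between Enshi black and Large White, -0.14 between Chinese wild boar and Large White and -0.20 between Enshi black and Chinese wild boar, beside 0.01, 0.01 and 0.00 over all expressed genes. The medians of the other related lists, given below, differed in direction.

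Of 9 genes of SR protein kinases and their partners, the kinase DYRK1A was the 1 called. It had 5.29 CPM in the Enshi black liver, 13.5 in the Large White liver and 16.4 in the Chinese wild boar liver, 2.55-fold (2.04 to 3.20) and 3.10-fold (2.49 to 3.87) lower in Enshi black. Of 29 other splicing regulators, TAF15 was 2.34-fold lower in Enshi black than Large White (2.20 to 2.50), at 62.5 against 146 CPM. PTBP3, a polypyrimidine tract binding protein, was 3.14-fold higher in Enshi black than in Chinese wild boar (2.30 to 4.35), at 8.44 against 2.68 CPM. For comparison, 8.36% of all expressed genes were lower and 4.73% higher in Enshi black than Large White. The shares were 7.17% and 3.98% between Enshi black and Chinese wild boar, and 3.71% and 2.99% between Chinese wild boar and Large White. None of 11 exon junction and SR-related genes or 12 genes of the SMN complex and snRNP assembly passed in any pair. Nor did any of 6 SNRNP genes, whose symbols fall outside the naming rule. Of those 6, SNRNP70, another U1 protein, had 165 CPM in the Enshi black liver, 262 in the Large White liver and 215 in the Chinese wild boar liver. Median log2 folds of these lists follow the order used for the spliceosome list. They were -0.11, -0.10 and -0.10 for exon junction and SR-related genes, and 0.36, 0.27 and 0.09 for SMN complex and snRNP assembly. For the kinases and partners they were -0.10, 0.12 and 0.11, for other splicing regulators 0.09, -0.14 and 0.16, and for SNRNP genes 0.07, 0.04 and 0.02.

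The libraries held from 19982627 to 20654571 gene counts. Hepatocyte genes were abundant, with ALB at 66555, 25234 and 53772 CPM in Enshi black, Large White and Chinese wild boar. Other hepatocyte markers did not follow ALB. Of 12 expressed, 2 (ALB and APOB) were higher and 2 (APOE and FGB) lower in Enshi black than Large White. ALB alone was higher in Chinese wild boar than Large White and none was lower, against 2.99% and 3.71% of all expressed genes. The median log2 fold of the 12 was 0.01 in both of these comparisons. Between Enshi black and Chinese wild boar it was -0.22, with APOB higher and FGB lower, against 3.98% and 7.17% of all expressed genes. Marker lists of other cells and states differed between libraries, but not all in the same way. The sum of 10 T and NK cell markers was 179, 179 and 79.2 CPM, with Chinese wild boar low, and that of 5 cholangiocyte markers 33.7, 33.3 and 29.1 CPM. Of 5 B and plasma cell markers, 3 were higher and 1 lower in Enshi black than in either other library. The erythroid genes HBB (36.5, 102 and 183 CPM) and ALAS2 (7.74, 2.91 and 3.44 CPM) differed in order. The summed level of 12 expressed proliferation genes was 319, 161 and 144 CPM (4 of 12 higher in Enshi black than Large White, 5 of 12 than in Chinese wild boar), where 4.73% and 3.98% of all expressed genes were called higher and 8.36% and 7.17% lower. For 9 stellate cell and fibroblast markers it was 1103, 360 and 608 CPM (6 of 9 higher in Enshi black than Large White, and 2 higher and 1 lower than Chinese wild boar). For 8 macrophage markers it was 1538, 1983 and 1774 CPM (3 of 8 lower in Enshi black than Large White, 1 of 8 than Chinese wild boar). COL3A1 made up most of the fibroblast sum (838, 232 and 384 CPM). CD14 (862, 1129 and 1059 CPM) and C1QA (549, 520 and 518 CPM, highest in Enshi black) made up most of the macrophage sum. Large White, the high library for SNRPN, was also highest in the summed level of 2 neutrophil markers (6.58, 35.1 and 5.83 CPM). That sum rests on CSF3R (6.03, 33.8 and 4.51 CPM), since MPO had 0.556, 1.33 and 1.32 CPM. Large White was highest too in the summed level of 11 immediate early genes (429, 729 and 513 CPM, highest for 8 of 11). The sum of 6 endothelial markers was 556, 782 and 417 CPM, with Large White highest for 2 of them and lowest for 3. No expressed marker of these lists was at 0 in any library. Their part in the differences of HNRNPK, SRSF3 and SNRPN was not tested. In Enshi black 47 gene IDs stood at no more than 3 counts with 5 CPM or more in both other libraries, against 1 in each of those, and no gene of the splicing group was among them.

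Several values depend on gene models. In RefSeq Sscrofa11.1, a microRNA gene overlaps HNRNPK, an uncharacterised locus overlaps SRSF3, and FAM186B and FMNL3 overlap PRPF40B. Reads of overlapping or antisense genes cannot be told apart without strand. HNRNPA1, HNRNPK, SRSF3 and the Sm genes may have near-identical copies in the genome. Their counts are uncertain where reads could be split or dropped between copies, which was not tested.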

How the data were processed

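Total RNA of 3 livers was sequenced as paired-end reads. The authors deposited 1 table of whole-number read counts per Ensembl gene ID and library, not normalized, per the file headers. Per the submitters' processing notes, the tools were HTSeq 0.6.1, TopHat2 2.1.0 and edgeR 3.16.3, on the build Sscrofa10.2. The annotation release, strand setting and handling of reads with several alignments were not given in the sources used here: none is assumed. The 5 rows that name no gene stayed out of library sizes: reads with no feature made up 19.0%, 22.0% and 18.9% of all rows and ambiguous reads 1.89%, 2.18% and 2.49% in Enshi black, Large White and Chinese wild boar.

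Symbols were matched by gene ID. Totals of 20654571, 19982627 and 20215871 counts were scaled with TMM factors (1.04, 0.981 and 0.976) from edgeR 4.0.16 in R 4.3.3, so that 1 count was worth 0.0464, 0.0510 and 0.0507 CPM. A gene entered (13224 did) when any library reached 1 CPM. Folds of scaled counts have 95% exact conditional binomial (Clopper-Pearson) intervals, computed with Python 3.11.15 and scipy 1.17.1. The rule was also run on simulated Poisson counts. These held counting error only, so that run cannot show how the rule behaves with variation between animals. Without molecular identifiers, intervals and floors cover counting error only. List medians use log2 folds with a prior count of 2.

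Members and lists were chosen with earlier results of these data known. The naming rule took every gene passing in a pair and, per role group, the 2 of highest mean CPM and the 1 of largest log2 fold, any at 3 counts or fewer with 5 CPM in both others (there was none), and up to 2 passing genes per related list and direction. Other members are given to complete their family, after their values were seen. Alternatives were scaling by total counts or by DESeq2 1.42.0, no filter or one of 10 CPM, bounds of 1.5 and 4, a 99% interval, an added spread between animals (coefficient of variation 0.2 or 0.4, assumed), a prior count of 0.5 and the mean. The values of 1 member are not reported here, though counts over the group include it. No sequence of the members was used here.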

Additional observations from a re-analysis of the deposited data

How the results depend on the processing

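Counts of called genes are given as lower in Enshi black than Large White, lower in Chinese wild boar than Large White, and lower in Enshi black than Chinese wild boar. They were 3, 1 and 2, with 0 higher in each. With a bound of 1.5 they were 7, 1 and 4, with 1, 1 and 2 higher, and with a bound of 4 they were 1, 0 and 1. Adding a spread between animals, with a coefficient of variation assumed at 0.2, left 1, 1 and 1, and one of 0.4 left 0, 0 and 0. DESeq2 size factors, total counts, both filters and the 99% interval kept each count within 1.5 times. With total counts the median log2 fold of the group between Enshi black and Large White was reversed from -0.08 to 0.0128. The median of all expressed genes moved from 0.01 to 0.10 (log2) with that scaling, so the group stayed below it. SNRPN between Enshi black and Large White was no longer called with total counts (ratio 0.425) or the 99% interval. With the assumed spread of 0.2, HNRNPK in both comparisons and SNRPN between Chinese wild boar and Large White were still called. No paired analysis was possible because each breed has 1 library. With 1 library per breed no replicate could be left out. Depth limits the genes of few counts most, among them LSM5, PRPF38A, SRSF3 and SNRPN.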
